A study of Mus musculus with 8 samples.

Results

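Podocyte genes were compared in RNA sequencing of polyadenylated transcripts from mouse kidney. The 7 genes Nphs1, Podxl, Synpo, Wt1, Clic3, Ptpro and Cdkn1c were taken by name from the 54532 genes of the deposited table, and all 7 were among the 13376 genes with a mean of at least 0.5 FPKM that entered the test. FPKM is the read number scaled to gene length and to a library size. The groups were kidneys after BPA (bisphenol A, from which polycarbonate is made), with 4 libraries, and kidneys after vehicle, with 4 libraries. ICR, the name of an outbred mouse stock, stands in the library names, and no genotype, transgene or other agent is named for either group. No source used here gives dose, route, duration, age or the number of mice per library. Each p-value therefore reflects the spread among these libraries alone, which may be technical.

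Podocytes are the epithelial cells that cover the outside of the glomerular capillaries. Their interlocking foot processes leave slits that are bridged by the slit diaphragm, a sheet of adhesion proteins that completes the filter between blood and urine. Of the 7 genes, Nphs1 encodes nephrin, the adhesion protein that spans the slit. The others encode proteins of the podocyte surface, foot process or nucleus, so the set is a podocyte set of which only nephrin is itself a slit diaphragm protein. In bulk kidney, fewer podocytes and less RNA per podocyte cannot be told apart.

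Recovered whole reads numbered 15944081 to 17351540 per library, and the 7 genes together took 1118 to 4006 of them. The libraries differed in ways that touch the results below. Vehicle replicate 4 held skeletal muscle transcripts, whose 6 markers summed to 247 FPKM there and to at most 1.17 FPKM in the other libraries, and the most fat transcripts (87.4 FPKM over 6 markers). The clock gene Arntl was at 2.22 to 4.27 FPKM in replicates 1 and 2 of both groups and at 0.106 to 0.550 FPKM in replicates 3 and 4. BPA replicate 4 had the highest mitochondrial share of reads, 14.2%, where the other 3 BPA libraries had 9.66 to 9.85% and the vehicle libraries 7.02 to 8.33%. Whether these differences had a part in the levels of the podocyte genes was not tested.

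Each of the 7 genes had a higher mean in BPA, but none passed the test of BPA against vehicle, and for 6 of them the lowest levels of the study were those of vehicle replicates 3 and 4. In replicates 1 and 2 the groups lay close together for most of the genes. For Clic3 alone, every BPA library was above every vehicle library, as was the case for 3.23% of all tested genes. Its nearest values were 2.51 FPKM in BPA replicate 4 and 2.48 FPKM in vehicle replicate 1. Limma on log2(FPKM + 1), adjusted by Benjamini-Hochberg over all tested genes, called 0 of the 7, where 0.00748% of all tested genes were called. At an unadjusted p under 0.05, 2 of the 7 were higher (Clic3 and Cdkn1c) and 0 lower, beside 4.18% of all tested genes that were higher. Limma-voom on the recovered reads also called 0 of the 7. A change above 0 was found for 48.0% of all tested genes.

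**Figure D1:**
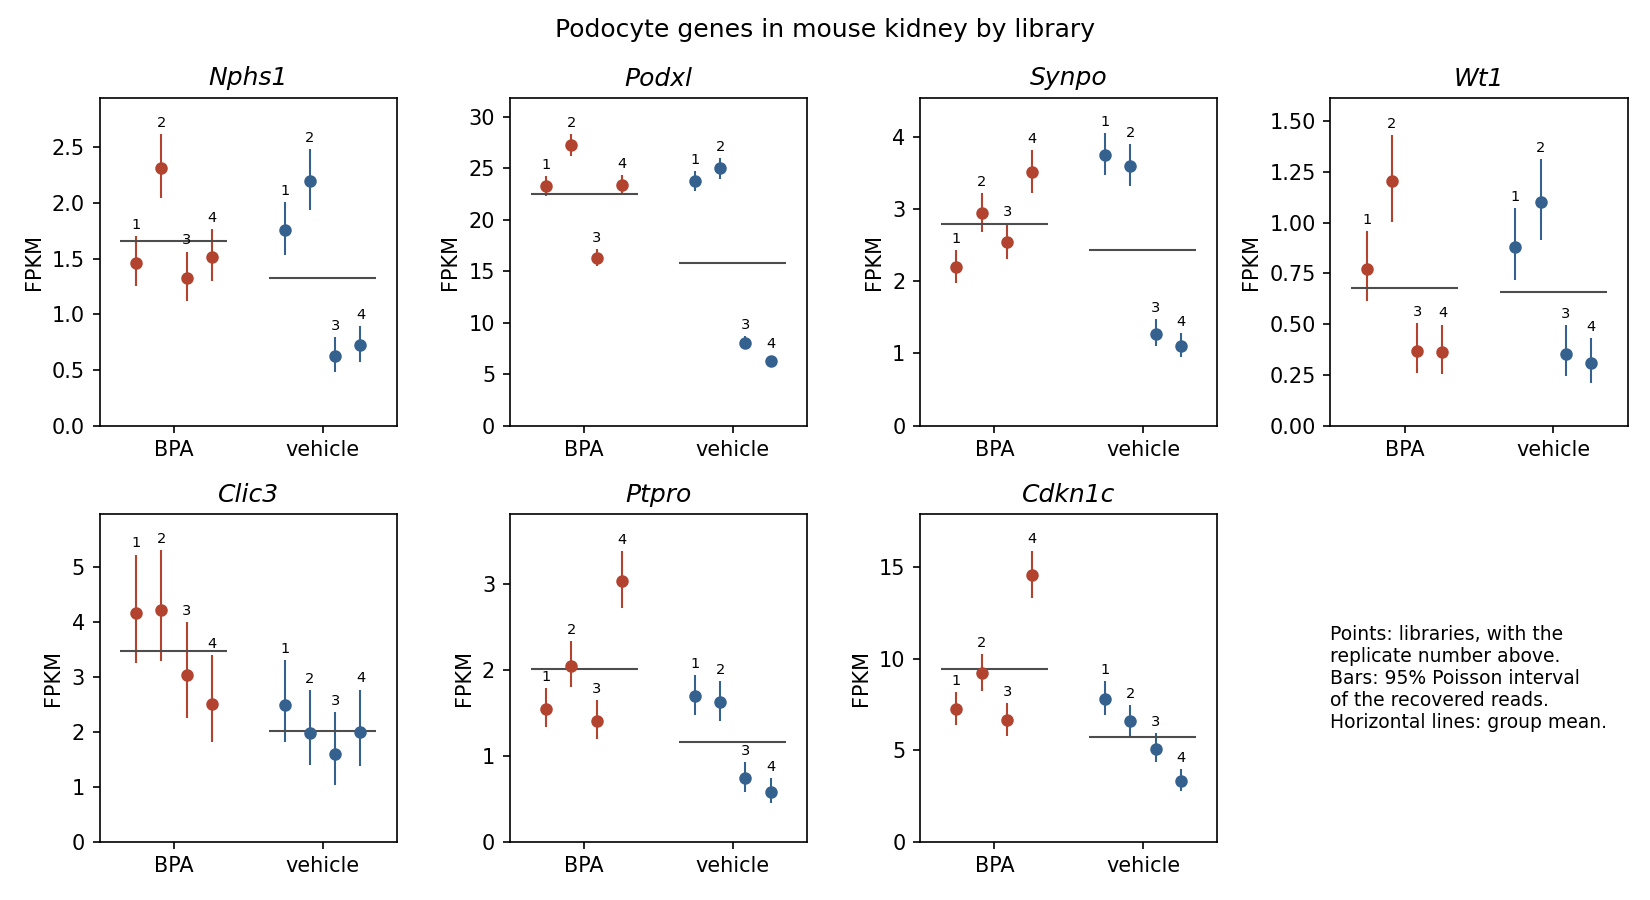
Level of each podocyte gene in FPKM (vertical axis, from 0) in the 4 BPA libraries (red) and the 4 vehicle libraries (blue), with the replicate number above each point, the 95% Poisson interval of its reads as a bar and the group mean as a line. Vehicle replicates 3 and 4 are the lowest libraries for every gene except Clic3, whose BPA libraries (2.51 to 4.21 FPKM) are all above the vehicle libraries (1.60 to 2.48 FPKM). Such a lack of overlap, with BPA above, holds for 3.23% of all tested genes.

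Nphs1 (ENSMUSG00000006649), the nephrin gene, lies on the plus strand of chromosome 7, at bases 30458315 to 30487223 in GRCm38. It was at 1.46, 2.32, 1.33 and 1.52 FPKM in BPA replicates 1 to 4, against 1.76, 2.20, 0.625 and 0.722 FPKM in vehicle replicates 1 to 4. Vehicle replicates 3 and 4 were below all other libraries, vehicle replicates 1 and 2 lay within the BPA range, and the groups overlapped. The log2 change was 0.24 (SE 0.240, limma adjusted p = 0.695). Between 64 and 260 reads stood behind each value. A processed pseudogene on the opposite strand, Rps12-ps4, covers 183 of the 6620 exonic bases of Nphs1. Whether counting used strand is not stated, so reads in those bases cannot be assigned with certainty.

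The region before the RefSeq start of Nphs1 is shown with those of Ptpro and Clic3, the members found in the RefSeq promoter table (3 of 7, build GRCm38.p6). Whether these sequences bear on the levels was not tested. Each run holds the 250 bases before the transcript start in RefSeq, 5′ to 3′ on the plus strand. The RefSeq start of Nphs1 lies downstream of the gene start given above, so its window falls inside those bounds. Capitals mark a match to the core of the motif of WT1, the podocyte transcription factor encoded by Wt1.
Nphs1, chr7:30459808-30460057: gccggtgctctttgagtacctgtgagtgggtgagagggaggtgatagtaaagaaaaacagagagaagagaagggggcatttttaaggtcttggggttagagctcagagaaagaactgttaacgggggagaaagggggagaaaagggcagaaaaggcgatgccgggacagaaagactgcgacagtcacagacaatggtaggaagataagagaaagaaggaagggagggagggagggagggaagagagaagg
Ptpro, chr6:137252049-137252298: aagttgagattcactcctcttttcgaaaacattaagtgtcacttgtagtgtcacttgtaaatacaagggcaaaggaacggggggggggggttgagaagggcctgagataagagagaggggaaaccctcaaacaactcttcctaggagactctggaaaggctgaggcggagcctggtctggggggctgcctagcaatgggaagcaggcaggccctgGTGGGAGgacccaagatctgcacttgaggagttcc
Clic3, chr2:25456593-25456842: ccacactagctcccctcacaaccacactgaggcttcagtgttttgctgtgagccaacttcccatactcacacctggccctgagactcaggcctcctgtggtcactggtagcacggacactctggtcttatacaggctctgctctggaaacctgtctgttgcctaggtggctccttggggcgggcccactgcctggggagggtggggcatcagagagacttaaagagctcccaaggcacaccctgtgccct

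The WT1 core was searched as GTGGGAG on both strands and was found once, 35 bases before the RefSeq start of Ptpro. Of 32851 promoter windows of the same length, 8.25% hold it. Other motifs searched included GTAAACA for forkhead factors (3.17% of windows), TAATTA for LMX1B (4.84%) and CAGCTG for TCF21 (13%). None of these 3 motifs was found in the 3 windows. A match is a description of the letters and not of a bound site.

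Podxl (ENSMUSG00000025608), on the minus strand of chromosome 6 from 31519488 to 31563981, encodes podocalyxin, a sialylated protein that keeps foot processes apart and is also made by vascular endothelium. It had the highest level of the set in every library. Podxl was at 23.3, 27.2, 16.3 and 23.4 FPKM in BPA replicates 1 to 4, against 23.8, 24.98, 8.07 and 6.27 FPKM in vehicle replicates 1 to 4. BPA replicates 1, 2 and 4 and vehicle replicates 1 and 2 lay at 23.3 to 27.2 FPKM, BPA replicate 3 was lower, and vehicle replicates 3 and 4 were lowest. The log2 change was 0.69 (SE 0.422, limma adjusted p = 0.535), with a 95% interval of -0.27 to 1.65.

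Synpo (ENSMUSG00000043079), on the minus strand of chromosome 18 from 60593973 to 60660142, encodes synaptopodin, an actin-associated protein of the foot process. It was at 2.19, 2.94, 2.54 and 3.504 FPKM in BPA replicates 1 to 4, against 3.75, 3.60, 1.27 and 1.11 FPKM in vehicle replicates 1 to 4. The vehicle group held both the highest and the lowest libraries, so the BPA range lay within the vehicle range. The log2 change was 0.24 (SE 0.289, limma adjusted p = 0.753). Its direction turned to -0.40 in replicates 1 and 2 alone, to -0.053 with library weights and to -0.051 without both replicates 4.

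Ptpro (ENSMUSG00000030223), on the plus strand of chromosome 6 from 137252319 to 137463233, encodes a receptor-type tyrosine phosphatase of the podocyte surface, also known as GLEPP1. It was at 1.55, 2.05, 1.41 and 3.04 FPKM in BPA replicates 1 to 4, against 1.70, 1.62, 0.740 and 0.582 FPKM in vehicle replicates 1 to 4. BPA replicate 4 was the highest library, vehicle replicates 3 and 4 were the lowest, and the others lay together. The log2 change was 0.49 (SE 0.233, limma adjusted p = 0.473).

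Clic3 (ENSMUSG00000015093), on the plus strand of chromosome 2 from 25456838 to 25458776, belongs to the chloride intracellular channel family. It was at 4.16, 4.21, 3.03 and 2.51 FPKM in BPA replicates 1 to 4, against 2.48, 1.99, 1.60 and 1.99 FPKM in vehicle replicates 1 to 4. The groups did not overlap, although BPA replicate 4 and vehicle replicate 1 differed by less than their counting error, with 42 and 46 reads before scaling. Clic3 was the only one of the 7 without overlap, and every BPA library was above every vehicle library for 3.23% of all tested genes. The mean was 3.48 ± 0.843 FPKM in BPA and 2.02 ± 0.362 FPKM in vehicle (SD, n = 4 each). The log2 change of 0.56 (SE 0.159, 95% interval 0.20 to 0.92) did not pass after adjustment (limma adjusted p = 0.365). The gene rests on 25 to 73 reads per library. It overlaps Paxx on the opposite strand, with 0 shared exonic bases, and Paxx had a log2 change of -0.33.

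The nuclear proteins of the set are a transcription factor and a cell cycle inhibitor. Wt1 (ENSMUSG00000016458), on the plus strand of chromosome 2 from 105126529 to 105173616, encodes the zinc finger factor WT1, which is needed for podocyte identity and is also found in parietal epithelium and mesothelium. Wt1 was at 0.772, 1.204, 0.367 and 0.361 FPKM in BPA replicates 1 to 4, against 0.881, 1.10, 0.355 and 0.307 FPKM in vehicle replicates 1 to 4. Replicates 1 and 2 of both groups were high and replicates 3 and 4 of both groups were low, a division that Nphs1, Podxl, Synpo, Ptpro and Cdkn1c showed in vehicle but not in BPA. The log2 change was 0.014 (SE 0.222, 95% interval -0.49 to 0.52, limma adjusted p = 0.983), and its direction turned with rescaling to a common total (-0.017). The lowest library held 33 reads of the gene, for which the 95% Poisson interval of the level was 0.211 to 0.431 FPKM.

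Cdkn1c (ENSMUSG00000037664), on the minus strand of chromosome 7 from 143458339 to 143461050, encodes p57, an imprinted inhibitor of cyclin-dependent kinases that marks podocytes out of the cell cycle. It was at 7.26, 9.21, 6.66 and 14.6 FPKM in BPA replicates 1 to 4, against 7.82, 6.59, 5.10 and 3.33 FPKM in vehicle replicates 1 to 4. BPA replicate 4 was the highest library, as for Ptpro, while BPA replicates 1 and 3 overlapped with vehicle replicates 1 and 2. The log2 change was 0.63 (SE 0.275, limma adjusted p = 0.453). Its unadjusted p of 0.0496 from limma rested in part on BPA replicate 4, without which the log2 change was 0.41.

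The genes were also compared within replicates 1 and 2 and within replicates 3 and 4, a division by replicate number that was chosen after the data were seen. In replicates 1 and 2, the log2 change was 0.046 for Podxl, -0.055 for Nphs1, -0.40 for Synpo, -0.0088 for Wt1, 0.069 for Ptpro and 0.17 for Cdkn1c. In replicates 3 and 4 it was 1.34 for Podxl, 0.53 for Nphs1, 0.87 for Synpo, 0.036 for Wt1, 0.91 for Ptpro and 1.09 for Cdkn1c. The larger values of Podxl, Nphs1, Synpo, Ptpro and Cdkn1c in replicates 3 and 4 restate library levels already given and are no separate result. Those levels are the low ones of vehicle replicates 3 and 4. For Ptpro and Cdkn1c they include BPA replicate 4, the highest library, at 3.04 and 14.6 FPKM. Clic3 had the opposite order, with 0.68 in replicates 1 and 2 and 0.43 in replicates 3 and 4, and Wt1 was near 0 in both. None of the 7 genes passed limma's test in either part (adjusted p of 0.330 or more). Of all 13376 tested genes, limma called 2 in replicates 1 and 2 and 0 in replicates 3 and 4. The difference between the parts was not tested.

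**Figure D2:**
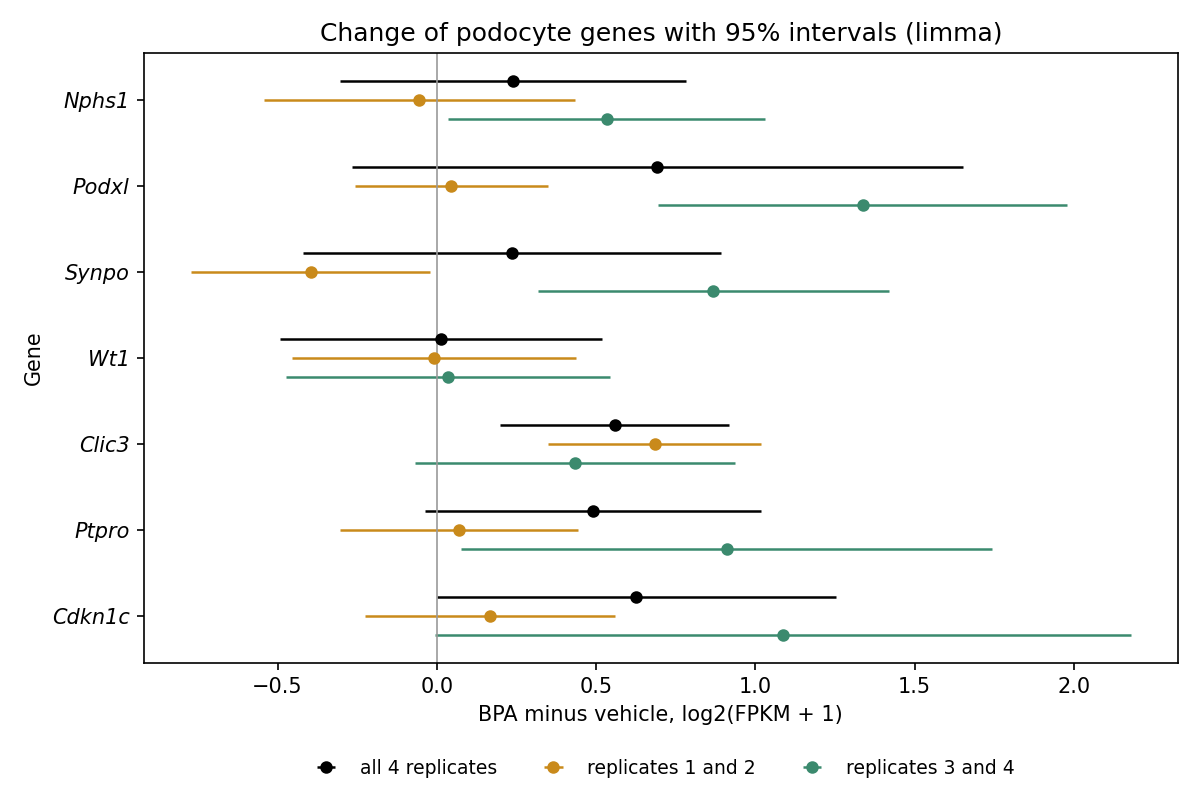
Log2 change of each podocyte gene, BPA minus vehicle, on the log2(FPKM + 1) scale (horizontal axis), with 95% intervals from limma for all 4 replicates (black), replicates 1 and 2 (yellow) and replicates 3 and 4 (green). The yellow points of Podxl, Nphs1, Wt1 and Ptpro are within 0.07 of 0, and the green point of Podxl is at 1.34.

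Relative to nephrin, 5 of the other 6 genes varied less between libraries than on their own, and Clic3 did not. From lowest to highest library, the FPKM of Podxl differed 4.34-fold and its ratio to Nphs1 1.83-fold. For Clic3 the FPKM differed 2.64-fold and the ratio 3.14-fold. Podxl ran from 6.27 to 27.2 FPKM over the libraries, whereas the ratio of Podxl to Nphs1 in FPKM was 15.9, 11.8, 12.3 and 15.4 in BPA replicates 1 to 4, against 13.5, 11.4, 12.9 and 8.69 in vehicle replicates 1 to 4. The ratio in the low vehicle replicate 3 was thus within the BPA range, whereas that in the low vehicle replicate 4 was below it. The ratio of Synpo to Nphs1 was 1.27 to 2.31 in BPA and 1.53 to 2.13 in vehicle, so its groups overlapped as well. The ratio of Wt1 to Nphs1 was 0.528, 0.520, 0.276 and 0.238 in BPA replicates 1 to 4, against 0.502, 0.501, 0.568 and 0.425 in vehicle replicates 1 to 4. BPA replicates 3 and 4 were the low libraries by this ratio. The ratio of Cdkn1c to Nphs1 was highest in BPA replicate 4, at 9.60, and ran from 2.997 to 8.17 in the other libraries. The order of levels was Podxl, then Cdkn1c at the top and Wt1 at the bottom in all 8 libraries, while Clic3, Synpo, Ptpro and Nphs1 changed places between them.

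The genes whose pattern over the 8 libraries was most like that of the set were found by the root mean square distance between standardised log2(FPKM + 1) profiles, with 0 for identical profiles. Among 10090 protein-coding genes with a mean of at least 1 FPKM, 7 of the 8 closest are given here. They were Myadm (distance 0.174), Pcdh12, an endothelial protocadherin (0.181), Rsad2, an interferon-induced antiviral gene (0.186), Pdgfrb, a receptor of mesangial cells and pericytes (0.191), Dysf (0.196), the collagen gene Col1a2 (0.199) and Plxnd1, a semaphorin receptor of endothelium (0.211). Among the 7 genes themselves the distance was 0.146 for Podxl, 0.317 for Nphs1, 0.411 for Synpo, 0.421 for Ptpro, 0.561 for Cdkn1c, 0.698 for Wt1 and 0.782 for Clic3. The profile is the mean of the 7 genes, so each of them counts in the profile it was measured against. Clic3 and Wt1 were farthest from this mean profile. Of the 7, only Podxl was closer to it than the genes listed above.

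**Figure D3:**
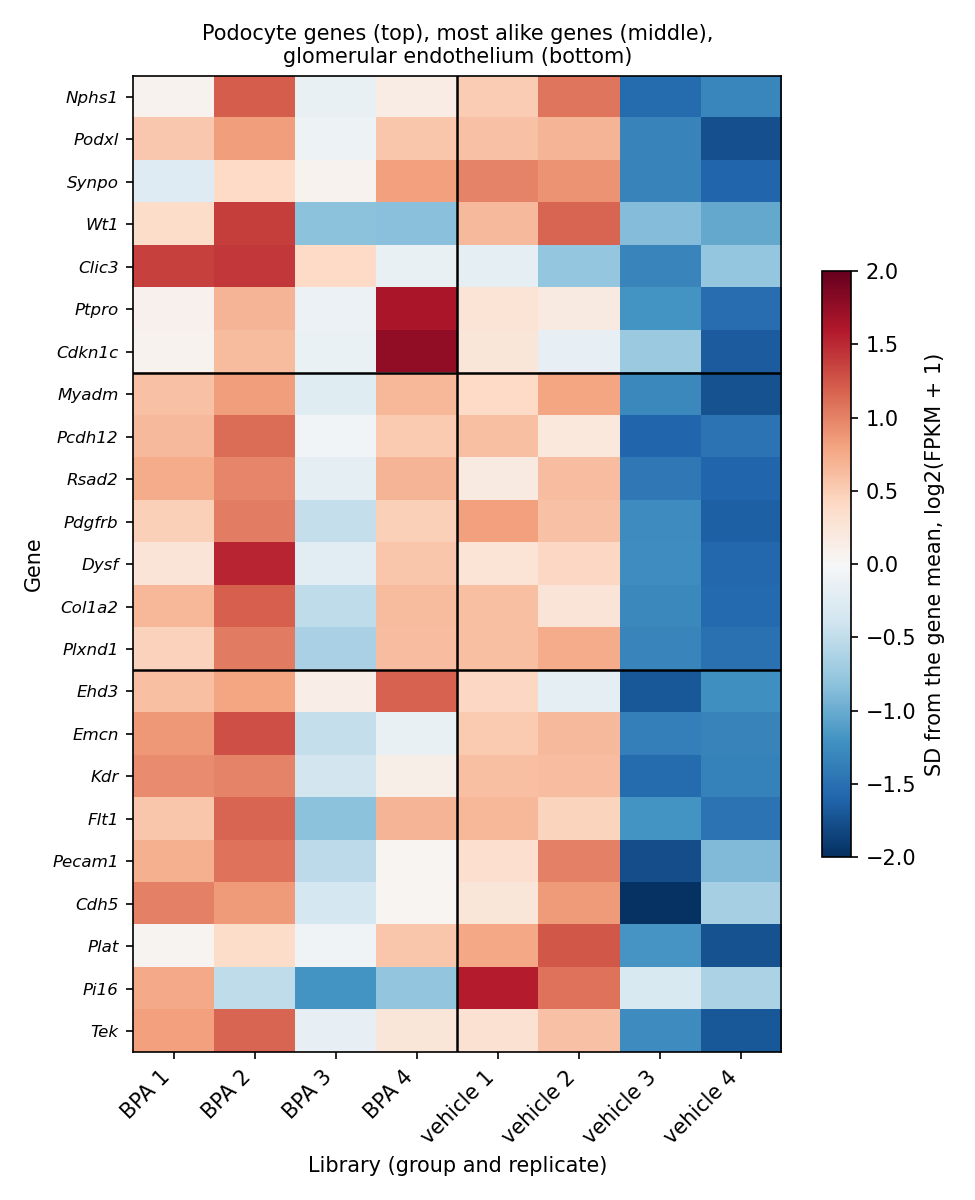
Standardised log2(FPKM + 1) of the 7 podocyte genes (top), 7 of the 8 genes most alike (middle) and the 9 tested markers of the glomerular endothelium list (bottom) in each library, as SD from the gene's mean (red above, blue below). The columns of vehicle replicates 3 and 4 are blue in all blocks, and Wt1 is also blue in BPA replicates 3 and 4.

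Most markers of the glomerular endothelium list were lowest in the same libraries, and fewer of those of mesangium and parietal epithelium. The list includes Pecam1, Cdh5, Kdr, Flt1 and Tek, which are not particular to the glomerulus, so its levels cannot be read as those of glomerular endothelium alone. Of 9 tested markers of this list, 8 had both vehicle replicates 3 and 4 below every other library. So had 6 of the 7 podocyte genes, where 8.20% of all tested genes did. Pi16 was the marker without the pattern. The summed level of the 10 endothelial markers was 24.6 to 47.4 FPKM in BPA and 13.2 to 41.9 FPKM in vehicle, with 13.2 and 14.8 FPKM in vehicle replicates 3 and 4. Emcn, the endothelial sialomucin endomucin, was at 7.37, 9.34, 3.26 and 4.03 FPKM in BPA replicates 1 to 4, against 6.07, 6.52, 1.74 and 1.78 FPKM in vehicle replicates 1 to 4. Pecam1, an endothelial adhesion molecule, was at 3.32 to 6.73 FPKM in BPA and 1.75 to 6.51 FPKM in vehicle. Sost was at 0 reads in BPA replicate 4, which allows up to 0.0879 FPKM at 3 reads. Of 7 tested mesangial and juxtaglomerular markers, 4 had the same 2 lowest libraries, and the list summed to 37.5 to 63.5 FPKM in BPA and 22.7 to 56.6 FPKM in vehicle. Its renin gene Ren1 was lowest in both replicates 4, at 16.5 FPKM in BPA and 10.3 FPKM in vehicle. Of 6 tested parietal epithelium markers, 2 had the pattern, and the list summed to 47.6 to 62.2 FPKM in BPA and 40.8 to 69.5 FPKM in vehicle.

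Few tubule markers had the pattern, which 8.20% of all tested genes had. These lists are too short for a count of 0 to be told apart from that share. Of 10 tested proximal tubule markers, 0 had vehicle replicates 3 and 4 as the 2 lowest libraries, and 0 of 6 did for the loop of Henle, 2 of 11 for the distal tubule and collecting duct, and 0 of 4 for the inner medulla. The summed proximal tubule level, led by Kap and Miox, was 35101 to 66667 FPKM in BPA and 49706 to 65834 FPKM in vehicle. The loop of Henle, led by Umod and Egf, summed to 491 to 844 FPKM in BPA and 259 to 793 FPKM in vehicle, with the lowest value in vehicle replicate 4. The distal and collecting duct list, led by Calb1 and Pvalb, summed to 314 to 438 FPKM in BPA and 311 to 503 FPKM in vehicle, and the inner medulla list, led by Akr1b3 and Slc5a3, to 19.9 to 39.2 FPKM in BPA and 24.7 to 34.3 FPKM in vehicle.

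A wider list of 78 podocyte genes was compared in the same fit, of which 69 were tested. Higher means in BPA were found for 42 and lower means for 27, with a median log2 change of 0.081, beside -0.012 over all tested genes. The list's median was 0.19 after a correction for GC content, 0.028 with library weights, and 0.046 to 0.15 with 1 library left out. Limma called 0 of them, and limma-voom on the recovered reads also called 0. At an unadjusted p under 0.05, 6 were higher and 2 lower, where 4.18% of all tested genes were higher and 6.83% lower. Vehicle replicates 3 and 4 were the 2 lowest libraries for 20 of the 69, beside 8.20% of all tested genes. By replicate number, the list's median was -0.053 in replicates 1 and 2 alone and 0.27 in replicates 3 and 4 alone.

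**Figure D4:**
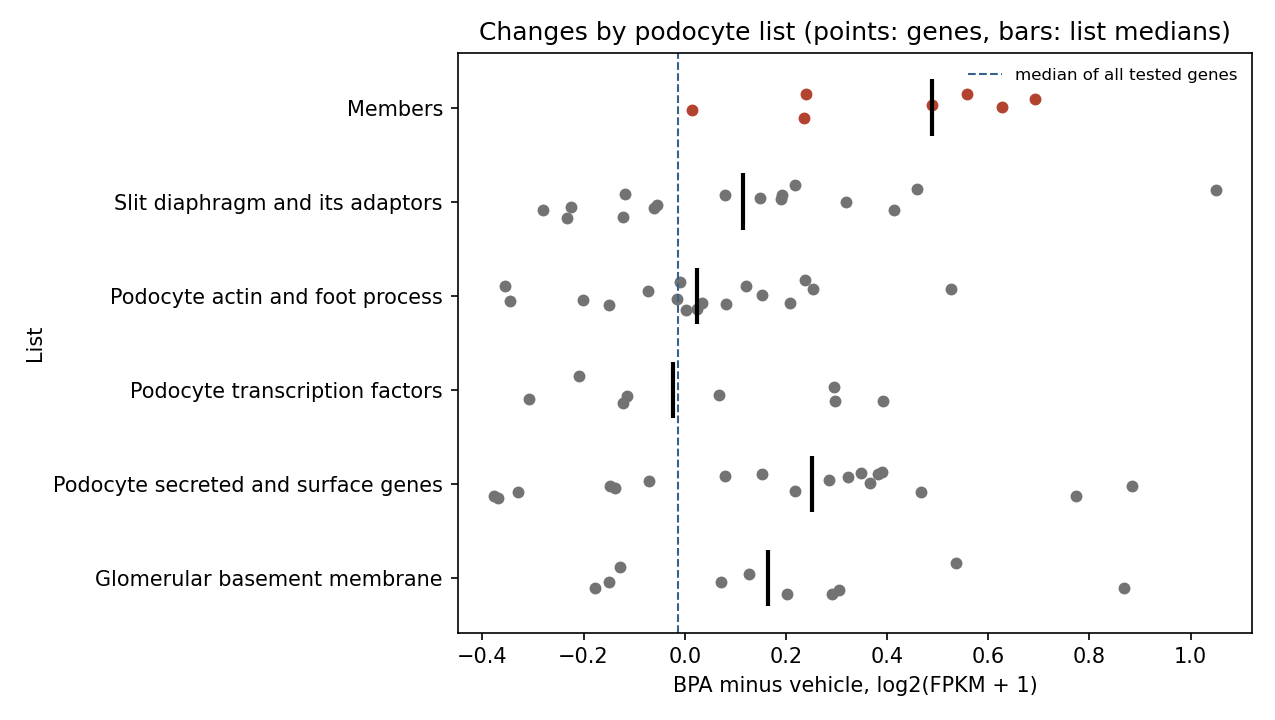
Log2 change, BPA minus vehicle, on the log2(FPKM + 1) scale (horizontal axis) of the 7 podocyte genes (red) and of the tested genes of each wider podocyte list (grey), with list medians as bars and the median of all tested genes as a dashed line at -0.012. The medians of the wider lists run from -0.023 for transcription factors to 0.25 for secreted and surface genes, and the bar of the 7 podocyte genes lies at 0.49, the value of Ptpro.

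Among slit diaphragm proteins and their adaptors, 9 of 16 tested genes were higher and 7 lower (median log2 change 0.11). Cd2ap, the adaptor that links nephrin to actin, was at 8.46, 8.23, 8.43 and 11.6 FPKM in BPA replicates 1 to 4, against 7.09, 6.59, 5.96 and 5.77 FPKM in vehicle replicates 1 to 4. The groups did not overlap, but the log2 change of 0.46 did not pass (SE 0.126, limma adjusted p = 0.365). Kirrel, whose product NEPH1 pairs with nephrin across the slit, was at 1.078 ± 0.298 FPKM in BPA and 0.562 ± 0.257 FPKM in vehicle (log2 change 0.41, limma adjusted p = 0.429). The junction scaffold Tjp1 was at 5.14 ± 0.622 FPKM in BPA and 3.99 ± 1.11 FPKM in vehicle. Nck2, an adaptor that binds phosphorylated nephrin, was at 7.18 ± 0.699 FPKM in BPA and 8.99 ± 1.57 FPKM in vehicle (log2 change -0.28, limma adjusted p = 0.471).

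Genes of the actin cytoskeleton and foot process were divided, with 10 of 17 higher and 7 lower (median 0.024). The 4 with the smallest p were the cortactin gene Cttn (26.6 ± 4.83 FPKM in BPA and 34.1 ± 4.50 FPKM in vehicle), Rhpn1 (5.25 ± 0.411 FPKM in BPA and 6.20 ± 0.683 FPKM in vehicle), Pdlim2 (2.67 ± 0.861 FPKM in BPA and 3.57 ± 0.437 FPKM in vehicle) and the integrin gene Itgb1 (74.6 ± 10.2 FPKM in BPA and 63.9 ± 1.98 FPKM in vehicle). Their limma adjusted p ran from 0.454 to 0.527, and the groups overlapped for each. Most genes of this list are also expressed in tubules.

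Podocyte transcription factors had 4 of 8 higher and 4 lower (median -0.023). Of the 8, 0 had vehicle replicates 3 and 4 as the 2 lowest libraries, beside 8.20% of all tested genes. Zhx2, a zinc finger and homeobox factor, was at 6.68 ± 0.709 FPKM in BPA and 8.52 ± 0.966 FPKM in vehicle (log2 change -0.31, limma adjusted p = 0.406). Dach1 was at 3.11 ± 0.895 FPKM in BPA and 2.29 ± 0.163 FPKM in vehicle. Sox4 was at 0.745 ± 0.215 FPKM in BPA and 1.082 ± 0.649 FPKM in vehicle.

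Secreted and surface genes had 12 of 18 higher and 6 lower (median 0.25). Angpt1, the angiopoietin that podocytes supply to the glomerular endothelium, was at 3.60, 2.99, 3.98 and 2.999 FPKM in BPA replicates 1 to 4, against 1.72, 2.48, 1.10 and 1.15 FPKM in vehicle replicates 1 to 4. The groups did not overlap (log2 change 0.77, SE 0.176, limma adjusted p = 0.313). Dpp4, a surface peptidase that is also abundant on the proximal tubule brush border, did not overlap either, with 13.5 to 17.1 FPKM in BPA and 4.57 to 10.1 FPKM in vehicle (log2 change 0.88, limma adjusted p = 0.321). Cd2ap, Angpt1 and Dpp4 were the 3 of 69 genes for which every BPA library was above every vehicle library, beside 3.23% of all tested genes. Vegfa, the growth factor on which glomerular capillaries depend and which tubules also make, was at 28.0 ± 3.44 FPKM in BPA and 36.6 ± 4.23 FPKM in vehicle (log2 change -0.38, limma adjusted p = 0.386). Golim4 was at 2.64 ± 0.369 FPKM in BPA and 1.70 ± 0.707 FPKM in vehicle.

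The glomerular basement membrane, which podocytes and endothelium build together, had 7 of 10 genes higher and 3 lower (median 0.16). Nid1, which encodes nidogen, a linker of laminin and collagen, was at 5.79, 6.31, 2.85 and 5.26 FPKM in BPA replicates 1 to 4, against 3.99, 3.71, 0.921 and 1.39 FPKM in vehicle replicates 1 to 4 (log2 change 0.87, SE 0.344, limma adjusted p = 0.429). Its relative Nid2 was at 2.16 ± 0.914 FPKM in BPA and 1.24 ± 0.893 FPKM in vehicle. The laminin gene Lamc1 was at 4.08 ± 0.661 FPKM in BPA and 3.20 ± 0.998 FPKM in vehicle, and the collagen gene Col4a5 at 5.33 ± 0.795 FPKM in BPA and 4.49 ± 0.559 FPKM in vehicle. Both nidogens and Lamc1 had vehicle replicates 3 and 4 as their lowest libraries, and Col4a5 did not.

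GC content of transcripts moved with the group across all genes. The Spearman correlation of GC content with the BPA change was -0.40 over 13364 tested genes, which are not independent replicates. All 7 podocyte genes lay above the median GC content of 49.7%, from 50.2% in Ptpro to 59.4% in Cdkn1c. After a correction for GC content, the log2 change was 0.75 for Podxl, 0.75 for Clic3, 0.83 for Cdkn1c, 0.52 for Ptpro, 0.41 for Synpo, 0.38 for Nphs1 and 0.11 for Wt1. Limma called 0 of the 7 after that correction, with adjusted p from 0.552 for Clic3 to 0.903 for Wt1.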

How the data were processed

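Kidney libraries of polyadenylated RNA (4 BPA, 4 vehicle) were analysed from 1 table of deposited FPKM values. DESeq2 1.20.0 and GRCm38 are named, per the submitters' processing notes, without what each was used for. No source used here gives the aligner, counter or use of strand. Columns named for BPA match the BPA labels; the other columns, a letter with the replicate number, were read as the vehicle libraries, since no further group exists.

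In every library, low values (up to 20 reads) multiplied by gene length fell on whole numbers of a fixed unit to within 0.01 reads in 100% of cases, so whole reads were recovered; intervals from them cover counting error only. The library size behind the deposited FPKM followed the median-ratio size factor.

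The test was limma 3.58.1 (R 4.3.3) on log2(FPKM + 1), with limma's trend and robust options and without covariates, for genes with a mean of at least 0.5 FPKM, called at an adjusted p under 0.05. Fold changes on this scale understate low genes. The test was also run on simulated data, with the outcome not given here, so its power to call a change of a given size is not stated. GC content came from the longest GENCODE M21 transcript (99.9% of tested genes). No 2 libraries of a group were duplicates (chi-square per gene 15.5 to 100.2). Marker lists were described by sums and counts, without tests.

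Members and lists were chosen with earlier results of these data known. Named were the 7 genes, up to 4 genes of smallest p in each podocyte list, up to 2 of highest level in other lists, and the 8 genes most alike; some genes so chosen are not reported here. Alternatives were other pseudocounts, filters, scalings, weights, limma-voom, protein-coding genes only, a replicate block, a term for replicates 1 and 2 against 3 and 4, GC correction and libraries left out. Python 3.11.15, numpy 2.4.6, pandas 2.3.3, scipy 1.17.1 and matplotlib 3.10.9 were used.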

Additional observations from a re-analysis of the deposited data

Results flagged for a closer look

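Among the 56 genes named by rule, each checked in both groups, 7 values in 4 libraries stood far from the other 3 libraries of their group. The gap to the nearest, over the range, had to be above Dixon's 95% critical value. For independent normal values chance exceeds it in about 1 of 20 groups, and 112 groups were checked, so the count alone is near that level. The genes are not independent, since Acta1, Myh4 and Lyz2 stood out together in vehicle replicate 4. The count therefore does not make each value a chance one. Cd2ap was at 11.6 FPKM in BPA replicate 4, where the other BPA libraries were at 8.23 to 8.46 FPKM. Col4a5 was at 6.52 FPKM in BPA replicate 3, where the others were at 4.92 to 4.94 FPKM. Lamc1 was at 4.69 FPKM in vehicle replicate 2, where the others were at 2.54 to 2.87 FPKM. The remaining 4 are no podocyte genes. Kap, an androgen-regulated gene of the proximal tubule, was at 29692 FPKM in BPA replicate 4, where the others were at 58188 to 61935 FPKM. Vehicle replicate 4 held the muscle genes Acta1 at 103 FPKM and Myh4 at 36.3 FPKM, both at 0 reads in the other vehicle libraries, which allows up to 0.126 and 0.0322 FPKM at 3 reads. The myeloid gene Lyz2 was at 88.4 FPKM there, against 4.67 to 17.8 FPKM in the other vehicle libraries. None of the 7 podocyte genes had such a value in either group.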

How the results depend on the processing

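No setting called any of the 7 podocyte genes or any gene of the wider list. Clic3, Podxl, Ptpro and Cdkn1c kept their direction under every setting run. Directions turned for Nphs1 in replicates 1 and 2 alone (-0.055), for Synpo with library weights (-0.053), without both replicates 4 (-0.051) and in replicates 1 and 2 alone (-0.40), and for Wt1 after rescaling to a common total (-0.017), without both replicates 4 (-0.0015) and in replicates 1 and 2 alone (-0.0088). With single libraries left out, the change of Wt1 ran from -0.13 without BPA replicate 2 to 0.14 without vehicle replicate 2, and it was below 0 also without BPA replicate 1 (-0.023), vehicle replicate 3 (-0.074) or vehicle replicate 4 (-0.092). Podxl ran from 0.37 without vehicle replicate 4 to 0.98 without vehicle replicate 2, Nphs1 from 0.087 without vehicle replicate 3 to 0.41 without vehicle replicate 2, Synpo from 0.035 without vehicle replicate 4 to 0.43 without vehicle replicate 1, and Clic3 from 0.48 to 0.67. Ptpro ran from 0.34 to 0.61 and Cdkn1c from 0.41 to 0.77 with single libraries left out. Ptpro was at 0.25 with library weights and 0.85 with limma-voom, and Cdkn1c at 0.33 with library weights. Without both replicates 4, Ptpro was at 0.20 and Cdkn1c at 0.22. In replicates 1 and 2 alone, Ptpro was at 0.069 and Cdkn1c at 0.17. The wider list's median was 0.041 on a common total. The wider list's median was 0.27 in replicates 3 and 4 alone, -0.053 in replicates 1 and 2 alone and -0.0074 without both replicates 4; the cause was not tested.

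Over all genes, 1 gene was called, 0 with limma-voom, with protein-coding genes only, with the replicate block and in replicates 3 and 4 alone, 2 with the term for replicates 1 and 2 against 3 and 4 and in replicates 1 and 2 alone, and 8 with library weights. With single libraries left out the count ran from 0 to 4. Pairing by replicate number was examined with each gene's deviations from its group mean, not with the levels themselves. The replicate numbers did not pair the libraries (correlations of deviations in same-numbered libraries -0.03 to 0.14). The replicate block changed no call of a podocyte gene. Between groups, the deviations correlated at -0.033 to 0.19 within replicates 1 and 2 or within 3 and 4, and at -0.22 to 0.068 across these parts. The deviations of a group cancel out for each gene. Higher correlations within the parts therefore bring lower ones across them, and the contrast is partly fixed by construction. The term for these parts, which the main test lacks, lowered the SE of Podxl from 0.422 to 0.269, of Nphs1 from 0.240 to 0.164 and of Wt1 from 0.222 to 0.121. For Cdkn1c it did not. At a mean of at least 5 FPKM, only Podxl and Cdkn1c could be fitted. Low counts limit Clic3 (25 to 73 reads) and Wt1 (33 to 126 reads).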

Other observations

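Markers of cell types outside the nephron were summed in each library. The 6 fat markers, led by Fabp4 and Adipoq, summed to 1.52 to 10.2 FPKM in BPA and 3.04 to 87.4 FPKM in vehicle. The 6 skeletal muscle markers summed to 0.306 to 1.17 FPKM in BPA and 0.308 to 247 FPKM in vehicle. The 6 leukocyte markers, led by Lyz2 and C1qa, summed to 16.2 to 30.5 FPKM in BPA and 9.19 to 116.9 FPKM in vehicle, with the highest value in vehicle replicate 4 and the lowest in vehicle replicate 3. Vehicle replicate 3 had 0.832 FPKM of muscle and 9.03 FPKM of fat markers.

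Mesothelium, which also expresses Wt1, was at trace levels: of its 6 markers, Upk3b, Msln, Lrrn4 and Upk1b were each at 0 in at least 2 libraries, and the list's sum (40.5 to 53.2 FPKM in BPA, 39.9 to 74.5 FPKM in vehicle) was carried by the epithelial keratin Krt8. Adrenal cortex markers, led by Star, summed to 0.766 to 1.21 FPKM in BPA and 0.715 to 1.54 FPKM in vehicle, with Cyp11a1, Cyp11b2 and Nr5a1 at 0 in all libraries.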
